A study of Drosophila melanogaster with 15 samples.

Results

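Annotated antisense RNA genes of Drosophila melanogaster are transcription units that lie on the DNA strand opposite to another gene, and FlyBase gives each of them a symbol that starts with asRNA:. The genes described here were chosen by that prefix alone in the FlyBase annotation of the dm6 genome, and they number 503 of 17796 genes on the chromosomes that carry peaks. R-loops, in which an RNA pairs with 1 DNA strand and displaces the other, had been mapped by ssDRIP-seq, a method that recovers RNA:DNA hybrids with an antibody and sequences the DNA of the hybrid in a way that keeps the strands apart. The samples were whole Oregon R embryos aged 14–16 h, whole Oregon R embryos aged 2–3 h, and S2 cells, a cultured line that stems from late-stage embryos. All 3 sample types were untreated, and each had 2 ssDRIP libraries, 2 inputs and 1 ssDRIP library pretreated with RNase H1, the enzyme that digests the RNA of a hybrid. An embryo sample mixes every cell type of the embryo and an S2 sample is 1 line. The deposited peaks hold positions only, so they carry no marker with which the labelled stage or cell type could be checked.

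The 3 peak lists each pool both ssDRIP replicates and give position, width and strand, with no height and no read count. They hold 28961 peaks in 14–16 h embryos, 22581 in 2–3 h embryos and 28464 in S2 cells. Because the replicates are pooled and the depth behind a peak is unknown, no difference below could be tested against replicate error. Shares of genes or of peaks are given with 95% Wilson intervals, which cover counting error only, and the absence of a peak means that none was called.

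Antisense transcripts can pair with the transcript of the gene on the other strand, can share its promoter region, or can interfere with its transcription while both are being made. In flies such pairs occur at developmental regulators, for example the antisense RNAs at the Hox gene Ultrabithorax, as well as at housekeeping genes. Because 2 RNAs can be made from the same bases there, an R-loop over an antisense gene may contain either transcript, and only the strand tells the pair apart. A peak is called here own-strand when its strand in the list is that of the antisense gene, and opposite-strand when it is that of the gene on the other side, the partner. The strand is used as the lists give it. Whether that label names the strand of the RNA or of the sequenced DNA is not given in the sources used here, and with the other reading all own-strand and opposite-strand values below would change places. Among 7361 protein-coding genes with no other gene over them on either strand, a peak on the gene's own strand was found at 21.5% in 14–16 h embryos, 24.0% in 2–3 h embryos and 27.2% in S2 cells, and a peak on the opposite strand at 18.9%, 16.0% and 17.6%. The own strand therefore held peaks at more of these single-gene loci than the opposite strand in each list, by the least in 14–16 h embryos.

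The following stretches were picked as the longest purine run within an own-strand peak, at 6 antisense genes that had an own-strand peak in all 3 lists, and so they do not stand for whole peaks. Each line gives 30 bases of dm6 read 5′ to 3′ on the strand of the antisense gene, with that unbroken run of A and G in capitals. Purines made up 47.8% of the bases of the whole peak at asRNA:CR44873 and 62.1% at asRNA:CR44975, the lowest and the highest of the 6.
asRNA:CR46055, chr3R:21632756-21632785, forward strand: tccacacgcGGAGAAAGAGAAtcggagaga
asRNA:CR44975, chr2L:16697422-16697451, reverse strand: ttgcGAGAAAGAAGGGAAAAGAGAGcataa
asRNA:CR44873, chr2L:10004466-10004495, reverse strand: attggccgcAAGGAGGAAAAGcaagaaaaa
asRNA:CR43433, chr3L:17166949-17166978, forward strand: aatgggtGAAAAGAAAAAAGGGcgaaaaaa
asRNA:CR44358, chrX:11079385-11079414, forward strand: cacAGAAGGAAAGGAAAGGGAAAGGAAtgg
asRNA:CR43629, chr3R:4452827-4452856, forward strand: ctgataaatGGAAGAGGGGGcaacacgttg
The run of asRNA:CR44358 was 24 bases long, and 4.46% of all peaks in 14–16 h embryos, 5.71% in 2–3 h embryos and 4.28% in S2 cells held a run at least as long. The run of asRNA:CR44975 was 21 bases long, a length reached by 9.31% of all peaks in 14–16 h embryos, 11.2% in 2–3 h embryos and 8.44% in S2 cells. The shortest run shown, 11 bases in asRNA:CR43629, was reached by 69.8%, 77.8% and 75.7% of peaks in those lists, so runs of this length were ordinary among the peaks. The stretches lay inside an own-strand peak of the gene in all 3 lists, except that of asRNA:CR44358, which the own-strand peak in 14–16 h embryos did not hold in full.

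The antisense genes were short and lay over exons of their partners. Their lengths ran from 223 to 94235 bp with a median of 1031 bp, against a median of 1727 bp for all other genes and 3642 bp for the main partners. A single exon made up 255 of them. All 503 overlapped at least 1 gene on the other strand, 81 overlapped more than 1, and the main partner, the protein-coding gene with the longest overlap where there was one, was protein coding for 502. At 497 an exon shared bases with an exon of the main partner, and with any partner this held for 99.8%. By comparison, 41.6% of the 485 other lncRNA genes that overlap a gene on the other strand had an exon over an exon of that gene. Of the antisense genes, 252 lay inside the partner, 149 over its start, 57 over its end and 45 around it.

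Few antisense genes carried an R-loop peak on their own strand, and a like number carried one on the strand of the partner. Own-strand peaks lay over 57 antisense genes in 14–16 h embryos (11.3%, interval 8.85 to 14.4), over 54 in 2–3 h embryos (10.7%, interval 8.32 to 13.7) and over 73 in S2 cells (14.5%, interval 11.7 to 17.9), while 21.8%, 23.4% and 26.9% of all genes had one in the same lists. Opposite-strand peaks lay over 59 antisense genes in 14–16 h embryos (11.7%), 64 in 2–3 h embryos (12.7%) and 66 in S2 cells (13.1%), against 19.6%, 17% and 18.7% of all genes. The intervals of the own and the opposite strand overlapped in each list. Over all lists, 113 antisense genes had an own-strand peak in at least 1 list (37.6% of all genes did). An opposite-strand peak in at least 1 list was found at 114 antisense genes and at 5235 of all 17796 genes. Both were found at 59 antisense genes, whether or not in the same list, and 335 had no peak on either strand in any list. For the 59 and the 335, no count over all genes stands beside them.

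Gene length moved with the distance between antisense genes and other genes. Weighted to the lengths of the antisense genes in 5 classes, the other genes had an own-strand peak at 15% in 14–16 h embryos, 16.4% in 2–3 h embryos and 20% in S2 cells. In 20 finer classes, a choice made after the data were seen because the class of the longest genes ran up to far longer genes than the antisense ones, these shares were 12.4%, 14.6% and 18.5%. The first of these lies inside the interval of the antisense genes, and those of 2–3 h embryos and S2 cells lie above it. Among genes of up to 2133 bp, 34 of 402 antisense genes (8.46%) and 838 of 9994 other genes (8.39%) had an own-strand peak in 14–16 h embryos. In 2–3 h embryos the shares at these lengths were 7.96% of antisense genes and 10.1% of other genes, and in S2 cells 11.4% and 13.8%.

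On the opposite strand the order depended on the length classes. In the finer classes, other genes had an opposite-strand peak at 10.1% in 14–16 h embryos, 8.64% in 2–3 h embryos and 10.3% in S2 cells, each below the share of the antisense genes. In 5 classes these values were 12.9%, 11.1% and 12.5%, of which the first lay above the 11.7% of antisense genes in 14–16 h embryos. The intervals of the antisense genes ran from 9.20 to 14.8, from 10.1 to 15.9 and from 10.4 to 16.4, so with the finer classes the value for 14–16 h embryos lay inside and the other two below, and with 5 classes all 3 lay inside. That strand is the sense strand of a partner at all 503 antisense genes. An opposite-strand peak was nevertheless more frequent at other lncRNA genes, weighted in the finer classes, than at antisense genes in each list. The lncRNA shares were 16.7% in 14–16 h embryos, 13.4% in 2–3 h embryos and 19.6% in S2 cells. Of these, the value for 2–3 h embryos lay inside the interval of the antisense genes and the others above it. Other lncRNA genes at the same lengths had an own-strand peak at 23.6% in 14–16 h embryos, 20.8% in 2–3 h embryos and 29.3% in S2 cells. For the 485 lncRNA genes with a gene on the other strand, unweighted, these shares were 22.7%, 21.4% and 27.4%, all above the intervals of the antisense genes. Within those 485, the 202 with an exon over a partner exon, the arrangement nearly all antisense genes have, stood at 19.8%, 18.3% and 21.8%, and the other 283 at 24.7%, 23.7% and 31.4%. The interval of the 202 lay above that of the antisense genes in 14–16 h embryos (14.9 to 25.8) and overlapped it in 2–3 h embryos (13.6 to 24.2) and in S2 cells (16.6 to 28.0).

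**Figure D1:**
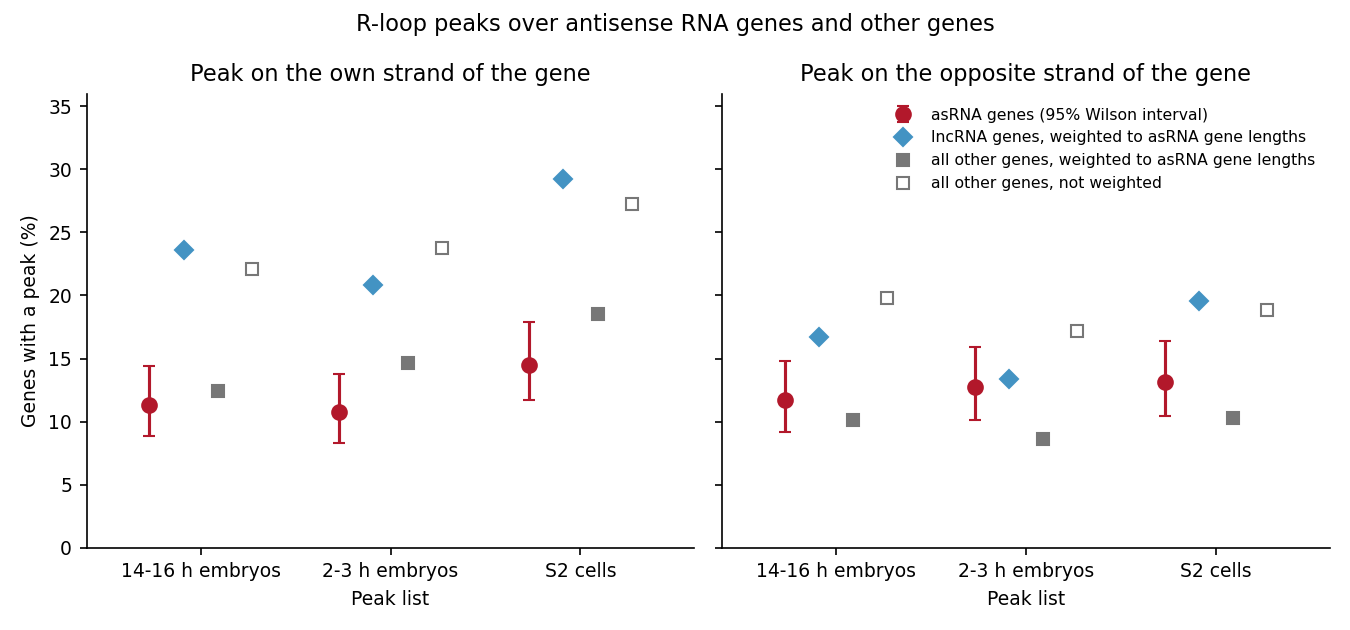
Share of genes, in percent, with a peak on the gene's own strand (left) and on the opposite strand (right) in each peak list. Circles with 95% Wilson intervals are the 503 antisense RNA genes, diamonds and filled squares are lncRNA genes and all other genes weighted to the antisense genes' lengths in 20 classes, and open squares are all other genes unweighted. On the own strand the antisense genes lie at 11.3%, 10.7% and 14.5%, below the lncRNA genes in every list. On the opposite strand they lie above all other genes weighted in 20 classes and below the lncRNA genes in every list. With 5 classes all other genes stand at 12.9% on that strand in 14–16 h embryos, above the antisense genes.

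Where an antisense gene had an own-strand peak, that peak covered a sizeable part of it. The median covered share was 18.6% of the gene in 14–16 h embryos, 20.4% in 2–3 h embryos and 21.8% in S2 cells. Over all genes with an own-strand peak these medians were 8.10%, 9.32% and 12.1%. Gene length differed as well, with a median of 1031 bp for antisense genes and 1727 bp for all other genes. The covered share at matched lengths was not tested. Over the summed length of all antisense genes, own-strand peaks covered 3.27% in 14–16 h embryos, 2.95% in 2–3 h embryos and 3.56% in S2 cells, and opposite-strand peaks 3.15%, 3.52% and 3.66%. All genes were covered at 5.07%, 4.44% and 5.58% on the own strand, and at 4.63%, 3.51% and 4.70% on the opposite strand. A single gene weighed on these sums: asRNA:CR44894 on X is 94235 bp long, 10.2% of all antisense gene length, and without it the own-strand shares were 2.73%, 2.67% and 3.87%. Another gene overlapped 29 antisense genes on their own strand, where a peak cannot be assigned to either gene. Without these 29 the own-strand shares were 2.76%, 2.81% and 3.86%. Own-strand peaks over antisense genes had median widths of 394 bp in 14–16 h embryos, 390 bp in 2–3 h embryos and 382 bp in S2 cells, close to the medians of 387, 391 and 400 bp over the whole lists.

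The set of antisense genes with an own-strand peak changed with the sample type. Of the 113 with such a peak in any list, 20 had it in 14–16 h embryos only, 8 in 2–3 h embryos only and 37 in S2 cells only. Those in exactly 1 list numbered 65 (57.5% of the 113, interval 48.3 to 66.2) and those in exactly 2 lists 25. Those in all 3 lists numbered 23 (20.4% of the 113, interval 14.0 to 28.7). Of all 17796 genes, with or without a peak, 14.4% had one in exactly 1 list, 11.7% in exactly 2 and 11.5% in all 3. For antisense genes the matching base is all 503, so these shares do not compare with 57.5% and 20.4%. On the base that does compare, the 6686 genes with an own-strand peak in any list, 38.5% had it in exactly 1 list and 30.5% in all 3. Gene length moved with this as well: antisense genes in all 3 lists had a median length of 2656 bp, against 1205 bp for those with an own-strand peak in any list. Other genes weighted to the lengths of the 113 stood at 50.3% in exactly 1 list and 16.4% in all 3, both inside the intervals of the antisense genes, and at 33.3% in exactly 2 lists, above the 22.1% of the antisense genes (interval 15.5 to 30.6).

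The embryo samples shared more antisense genes with each other than 14–16 h embryos did with S2 cells. An own-strand peak in both embryo lists was found at 35 antisense genes, 61.4% of those in 14–16 h embryos and 64.8% of those in 2–3 h embryos. 14–16 h embryos and S2 cells shared 25, which is 43.9% of those in 14–16 h embryos and 34.2% of those in S2 cells. 2–3 h embryos and S2 cells shared 34, 63.0% and 46.6% of their own lists. An own-strand peak in 14–16 h embryos and S2 cells but not in 2–3 h embryos was found at 2 of the 113 antisense genes (1.77%, interval 0.487 to 6.22) and at 295 of 6686 genes in all (4.41%). Over all genes, 74.8% of those in 2–3 h embryos were shared with S2 cells and 65.8% with 14–16 h embryos, and 14–16 h embryos and S2 cells shared 60.1% and 48.7% of their own lists.

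**Figure D2:**
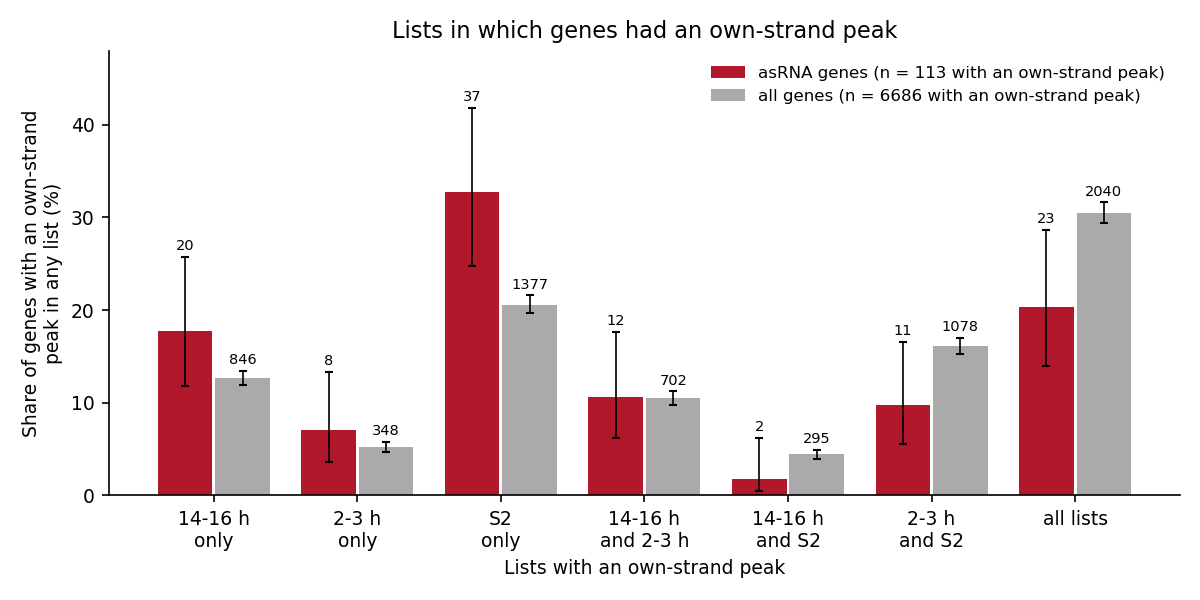
Share of genes, in percent of those with an own-strand peak in any list, by the combination of lists in which they had one. Dark bars are the 113 antisense RNA genes and grey bars the 6686 genes of the whole annotation, with 95% Wilson intervals and the number of genes above each bar; 37 antisense genes had an own-strand peak in S2 cells only and 23 in all lists.

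Of the 23 antisense genes with an own-strand peak in all 3 lists, 19 had bases covered in every list, over a median of 209 bp for the 23. 4 of the 23 had no opposite-strand peak in any list and 7 had one in every list. The partner had a peak on its own sense strand in every list for 15 of the 23, and in no list for 2. No share over all genes stands beside these counts, so they describe the 23 alone.

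asRNA:CR46055 (Dmel_CR46055), a 618 bp gene on the forward strand of 3R inside E2f1, a transcription factor of the S phase of the cell cycle, was the most fully covered. Its own-strand peak covered 551 bp in 14–16 h embryos, 618 bp in 2–3 h embryos and 580 bp in S2 cells. The opposite strand was covered over 350, 394 and 310 bp in the same lists, so both strands of this locus carried peaks in every sample type, and the 2 peaks shared 369, 696 and 547 bp, partly beyond the ends of the gene. The antisense gene inside grp, which encodes the fly Chk1 kinase of the DNA replication checkpoint, differed in that only its own strand was marked. asRNA:CR44975 (Dmel_CR44975, 2L, reverse strand, 418 bp) had 146 bp covered in 14–16 h embryos, 312 bp in 2–3 h embryos and all 418 bp in S2 cells, and no opposite-strand peak in any list. Its peak was 822 bp wide in S2 cells, and the peaks of 14–16 h and 2–3 h embryos were 227 and 352 bp wide, and the 21-base purine run shown above lay in all 3 peaks.

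asRNA:CR44358 (Dmel_CR44358, X, 482 bp) lies inside sev, the receptor tyrosine kinase that specifies the R7 photoreceptor, and asRNA:CR46033 (Dmel_CR46033, 3L, 1011 bp) inside Galphaf, a G protein alpha subunit. Both had own-strand peaks in every list and no opposite-strand peak in any. At asRNA:CR44358 the covered length was 103 bp in 14–16 h embryos, 188 bp in 2–3 h embryos and 211 bp in S2 cells. At asRNA:CR46033 it was 645 bp in 14–16 h embryos, against 64 bp in the younger embryos and 34 bp in cultured cells, where the peaks lay mostly beyond its end. The antisense gene of sev was thus covered most in S2 cells and that of Galphaf most in 14–16 h embryos.

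asRNA:CR44873 (Dmel_CR44873, 2L, 734 bp) inside Ndf, a nucleosome-destabilizing factor, carried peaks on both strands in every list. Own-strand peaks covered 292 bp of it in 14–16 h embryos, 426 bp in 2–3 h embryos and 354 bp in S2 cells. The opposite strand was covered over 229, 634 and 120 bp. asRNA:CR43433 (Dmel_CR43433, 3L, 680 bp) lies inside Rbp6, an RNA-binding protein of the Musashi family, and had 279 bp covered on its own strand in 14–16 h embryos, 129 bp in 2–3 h embryos and 387 bp in S2 cells. An opposite-strand peak touched it in 14–16 h embryos only, over 77 bp.

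Some antisense genes were covered most in embryos. asRNA:CR44062 (Dmel_CR44062, 3R, 2656 bp) runs over the start of bond, which encodes a fatty acid elongase, and carried the widest own-strand peak over any antisense gene in 14–16 h embryos, at 1122 bp. Its own strand was covered over 1122 bp in 14–16 h embryos, 610 bp in 2–3 h embryos and 476 bp in S2 cells. The opposite strand, the sense strand of bond, was covered over 1576 bp in the older embryos and over 929 bp in the younger ones, with no peak in S2 cells. asRNA:CR43629 (3R, 1591 bp, inside CG31522) had 464, 836 and 301 bp covered on its own strand in 14–16 h embryos, 2–3 h embryos and S2 cells, and opposite-strand peaks in the embryo lists only. asRNA:CR45104 (3R, 1580 bp), which spans CG14315, had 540, 459 and 310 bp covered in that order, with its own-strand peak outside CG14315 in each list. asRNA:CR43460 (3R, 2943 bp) lies inside rdx, an adaptor for Cullin-3 ubiquitin ligases known from Hedgehog signalling, and was covered over 443, 745 and 322 bp.

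In other antisense genes S2 cells had the most covered bases. asRNA:CR45189 (3R, 2468 bp) inside zfh1, a zinc-finger homeodomain repressor, had 433 bp covered in 14–16 h embryos, 644 bp in 2–3 h embryos and 933 bp in S2 cells on its own strand, and its sense-strand coverage was 0, 248 and 1265 bp. asRNA:CR45485 (X, 1656 bp), over the start of Had1, had 187, 185 and 622 bp covered on its own strand in the same lists. At asRNA:CR45485 another gene, CG3679, overlaps on the same strand, so a peak there cannot be assigned to either of the 2 genes. asRNA:CR46471 (2R, 8546 bp) lies inside sli, the secreted ligand of the Robo axon guidance receptors, and had 1 own-strand peak in 14–16 h embryos, 2 in 2–3 h embryos and 6 in S2 cells, which covered 404, 531 and 2769 bp. The widest of its S2 peaks, 2248 bp, was the widest own-strand peak over any antisense gene in that list, although no base of the gene was covered in all 3 lists. The widest in 2–3 h embryos, 1277 bp, overlapped the end of asRNA:CR46096 (3R, 1373 bp, over the start of CG5808) by 206 bp, and most of it lay beyond that gene.

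**Figure D3:**
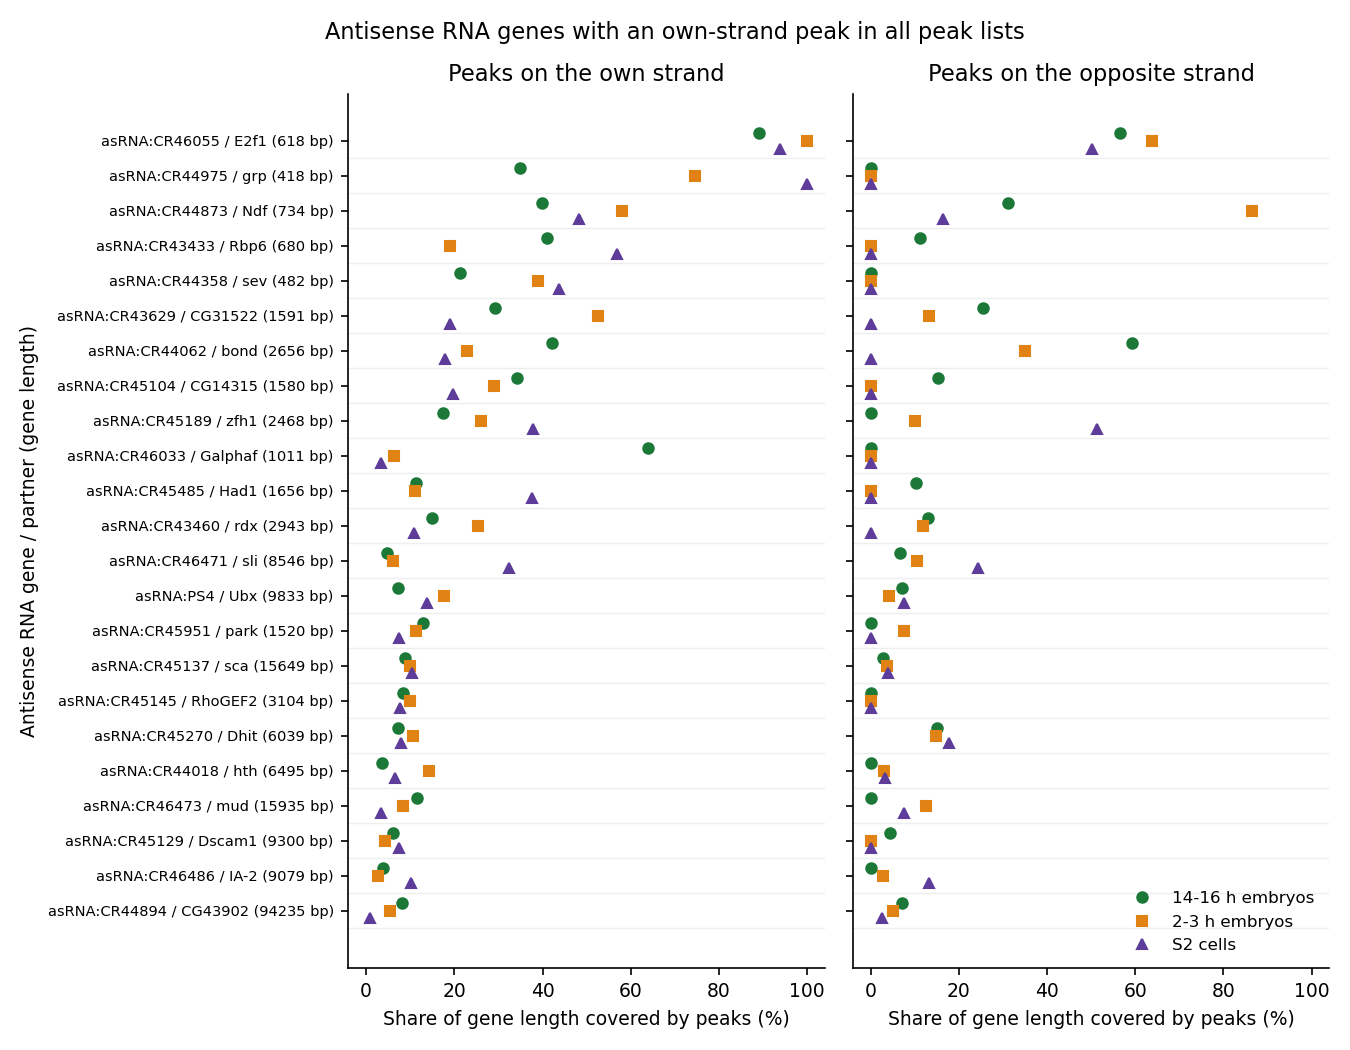
Share of gene length covered by peaks, in percent, on the own strand (left) and on the opposite strand (right) for the 23 antisense RNA genes with an own-strand peak in all lists, each with its partner and length, ordered by mean own-strand share. Green circles are 14–16 h embryos, orange squares 2–3 h embryos and purple triangles S2 cells; asRNA:CR46055 in E2f1 is covered over most of its length in every list, while asRNA:CR44975, asRNA:CR44358, asRNA:CR46033 and asRNA:CR45145 show no opposite-strand coverage.

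Partners were also looked up in lists of named genes. For scale, the 503 antisense genes had 489 distinct main partners, and the annotation held 13944 protein-coding genes. Whether listed genes were faced more or less often than other genes was not tested. From lists of partner genes drawn up with earlier results of these data known, 7 antisense genes faced 1 of 88 developmental transcription factors found in the annotation, 1 faced 1 of 43 signalling genes and 5 faced 1 of 60 neuronal channels, receptors and adhesion genes. The list names are approximate, since sli, a partner of 1 of these 5, encodes a secreted ligand. Of the 7, 3 had an own-strand peak in 14–16 h embryos, 5 in 2–3 h embryos and 4 in S2 cells, where all antisense genes stood at 11.3%, 10.7% and 14.5% and all genes at 21.8%, 23.4% and 26.9%. The median length of the 7 was 6039 bp, against 1031 bp for all antisense genes, so length moved with these counts. Of the 5 neuronal ones, 2, 2 and 3 had an own-strand peak in those lists.

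asRNA:PS4 (Dmel_CR46528, 3R, 9833 bp) lies inside Ultrabithorax (Ubx), the Hox gene of the posterior thorax and first abdominal segment. Own-strand peaks covered 720 bp of it in 14–16 h embryos, 1738 bp in 2–3 h embryos and 1358 bp in S2 cells, with 2, 2 and 3 peaks, and 720 bp were covered in every list. All of these peaks were centred in an intron of Ubx. asRNA:CR44018 (3R, 6495 bp), over the start of hth, a homeodomain cofactor of Hox proteins, had 233, 924 and 428 bp covered, but no base in all 3 lists. asRNA:CR45270 (2R, 6039 bp) faces both Dhit and grh, an epithelial transcription factor, and had own-strand peaks over 438, 641 and 478 bp. At asRNA:CR43948 (2R, 2589 bp), which overlaps the start of the pair-rule homeobox gene even skipped (eve), 2 own-strand peaks of 244 and 301 bp lay in 2–3 h embryos, over 441 bp of the antisense gene. None was called in 14–16 h embryos or S2 cells. No sense peak lay over eve in any list, and both peaks were centred outside it.

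asRNA:CR45129 (2R, 9300 bp) inside Dscam1, the highly diversified neuronal adhesion receptor, had 563 bp covered on its own strand in 14–16 h embryos, 395 bp in 2–3 h embryos and 684 bp in S2 cells. asRNA:CR44897 inside robo2, an axon guidance receptor, touched an own-strand peak in S2 cells only, over 30 bp. asRNA:CR44995 (2L, 3293 bp) inside chico, the insulin receptor substrate, had 196 bp covered in 2–3 h embryos and 164 bp in S2 cells, and no peak on either strand in 14–16 h embryos.

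Among the antisense genes with an own-strand peak in 1 sample type only, the opposite strand had no peak in that list at 11 of 20 in 14–16 h embryos (55%, interval 34.2 to 74.2), 7 of 8 in 2–3 h embryos (87.5%, interval 52.9 to 97.8) and 28 of 37 in S2 cells (75.7%, interval 59.9 to 86.6). These intervals overlapped. Among all genes with an own-strand peak in 14–16 h embryos, 1141 of 3883 had no opposite-strand peak there. The counts over all genes were 2062 of 4168 in 2–3 h embryos and 2584 of 4790 in S2 cells. Those genes may have had an own-strand peak in other lists too. The antisense genes with the most covered bases are as follows. In 14–16 h embryos, asRNA:CR43906 (X, 8789 bp), which another gene, cin, overlaps on the same strand, had 2 own-strand peaks over 1188 bp and 3 opposite-strand peaks over 1491 bp, and the other lists had none on either strand. asRNA:CR44083, over the start of Drep4, a nuclease of the CIDE family, had 425 bp covered in 14–16 h embryos, and asRNA:CR46139, over the start of CG34112, 400 bp. Opposite-strand peaks covered 539 and 494 bp of them in the same list, so none of these 3 genes was marked on its own strand alone. In 2–3 h embryos, asRNA:CR43926 (394 bp covered), over the start of the nuclear receptor gene dsf, and asRNA:CR46047 (405 bp covered), around CG18294, had an own-strand peak and, like the antisense gene of eve, no opposite-strand peak. In S2 cells, asRNA:CR45260 (2L, 4902 bp), which faces 5 genes, had 3 own-strand peaks over 879 bp. asRNA:CR45712, over the start of CG15353, was covered over 819 of its 822 bp, and asRNA:CR45924, inside ana, which encodes a glial glycoprotein that holds neuroblasts in arrest, over 679 of its 794 bp. Of these 3, asRNA:CR45712 alone had an opposite-strand peak in S2 cells.

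The reverse case, a marked partner strand beside an unmarked antisense strand, was seen at asRNA:bsAS (Dmel_CR44811, 2R, 18213 bp), an antisense gene inside blistered (bs), the fly serum response factor. It had no own-strand peak in any list. On the strand of bs it had 3 peaks over 1193 bp in 14–16 h embryos, 4 peaks over 1808 bp in 2–3 h embryos and 2 peaks over 793 bp in S2 cells, all centred in introns. asRNA:CR46485 (2R, 7892 bp) spans Jheh1, Jheh2 and Jheh3, juvenile hormone epoxide hydrolases, and had opposite-strand peaks over 246, 477 and 815 bp and none on its own strand. asRNA:CR31514 (3R, 3175 bp), which faces CG12947 and the ribosomal protein gene RpS29, had 442, 757 and 600 bp covered on the opposite strand and, on its own strand, 253 bp in 14–16 h embryos only. asRNA:CR44035 (3R, 3910 bp), over the start of CG8534, had 732, 348 and 378 bp covered on the opposite strand and an own-strand peak in S2 cells alone. The longest antisense genes without any peak were asRNA:CR44169 (6940 bp, spanning Spn42Da) and asRNA:CR46005 (6677 bp, facing l(3)mbn and 2 cuticle protein genes).

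Peaks on both strands of the same antisense gene were found at 30 genes in 14–16 h embryos, 26 in 2–3 h embryos and 25 in S2 cells, and 15.4%, 11.8% and 12.4% of all genes had both. In 14–16 h embryos these peaks mostly faced each other. At 29 of the 30 genes an own-strand and an opposite-strand peak shared bases, and at 23 they overlapped by at least 50% of each. In 2–3 h embryos 17 of 26 shared bases and 4 reached 50%, and in S2 cells 14 of 25 and 4. This followed the lists as a whole, in which 58.8% of peaks in 14–16 h embryos, 27.0% in 2–3 h embryos and 24.9% in S2 cells overlapped a peak on the other strand, against 54.1%, 26.7% and 19.1% of own-strand peaks over antisense genes. Without peaks paired across strands in this way, 35 antisense genes had an own-strand peak in 14–16 h embryos, 50 in 2–3 h embryos and 70 in S2 cells.

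Over partners of all lengths, the partner carried a sense peak more often where the antisense gene had an own-strand peak. In 14–16 h embryos the main partner had one at 41 of 57 antisense genes with an own-strand peak (71.9%, interval 59.2 to 81.9) and at 136 of 446 without (30.5%, interval 26.4 to 34.9). In 2–3 h embryos these shares were 66.7% and 30.3%, and in S2 cells 56.2% and 32.3%. Partner length moved with it: the median partner was 6051 bp long where the antisense gene had an own-strand peak in 14–16 h embryos and 3349.5 bp where it had none, and 10841 and 3276.5 bp in S2 cells. Within partners of 10 kb or more the shares were 92% with and 84.3% without an own-strand peak in 14–16 h embryos, 93.1% and 71.4% in 2–3 h embryos, and 83.8% and 74.4% in S2 cells. Within partners of 3 to 10 kb they were 57.1% of 14 and 25% of 148 in 14–16 h embryos (intervals 32.6 to 78.6 and 18.7 to 32.5). In 2–3 h embryos they were 55.6% of 9 and 28.8% of 153, and in S2 cells 47.1% of 17 and 35.2% of 145, with overlapping intervals. Within partners under 3 kb the shares were 55.6% of 18 and 6.63% of 196 in 14–16 h embryos, 25.0% of 16 and 11.1% of 198 in 2–3 h embryos, and 10.5% of 19 and 10.8% of 195 in S2 cells. At short partners the intervals lay apart in 14–16 h embryos (33.7 to 75.4 and 3.92 to 11.0) and overlapped in the other lists. Facing peaks bear on this, since they mark both strands of 1 place. Without peaks paired across strands, a choice made after the data were seen, the partner had a sense peak at 45.7% of antisense genes with and 27.6% without an own-strand peak in 14–16 h embryos, at 62% and 28.7% in 2–3 h embryos, and at 51.4% and 32.1% in S2 cells. The intervals then overlapped in 14–16 h embryos (30.5 to 61.8 and 23.7 to 31.8) and lay apart in 2–3 h embryos (48.2 to 74.1 and 24.7 to 33.0) and in S2 cells (40 to 62.8 and 27.9 to 36.6). Under the same choice, within partners under 3 kb, the partner had a sense peak at 33.3% of 12 antisense genes with and 4.95% of 202 without an own-strand peak in 14–16 h embryos, at 20% of 15 and 11.1% of 199 in 2–3 h embryos, and at 0 of 18 (interval up to 17.6) and 10.2% of 196 in S2 cells. The S2 order there was the other way round. The intervals at these short partners lay apart in 14–16 h embryos (13.8 to 60.9 and 2.71 to 8.87) and overlapped in the other lists.

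The antisense strand of the partners was covered by R-loop peaks less densely inside the annotated antisense gene than outside it. Over 500 protein-coding partners that extend beyond their antisense gene, peaks on the antisense strand covered 2.92% of the bases inside the antisense gene and 4.40% of those outside it in 14–16 h embryos. The values were 2.99% inside and 4.25% outside in 2–3 h embryos, and 4% inside and 6.79% outside in S2 cells. Partner by partner, coverage was higher inside at 38 and higher outside at 116 in 14–16 h embryos, at 37 and 103 in 2–3 h embryos, and at 47 and 115 in S2 cells, while 346, 360 and 338 partners had no antisense peak at all. The outside parts were far larger, 4972529 bp in sum against 644774 bp inside, so a peak had more room there. Over whole partners the sense strand was also covered less inside than outside, at 3.11% and 5.19% in 14–16 h embryos, 4.01% and 5.04% in 2–3 h embryos, and 4.21% and 7.19% in S2 cells.

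Exons made up 56.2% of the partner bases inside antisense genes and 27.9% of those outside, and exons held less antisense coverage than introns throughout. Within exons alone, antisense peaks covered 1.55% inside and 2.04% outside in 14–16 h embryos, 1.52% and 2.24% in 2–3 h embryos, and 2.49% and 3.25% in S2 cells. Within introns alone they covered 4.68% and 5.31%, 4.88% and 5.03%, and 5.94% and 8.15% in the same lists. For antisense peaks the order of inside and outside held in both parts in all 3 lists, with a smaller distance than over whole partners. For sense peaks it turned in introns in 2–3 h embryos, where they covered 4.98% inside and 4.74% outside.

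**Figure D4:**
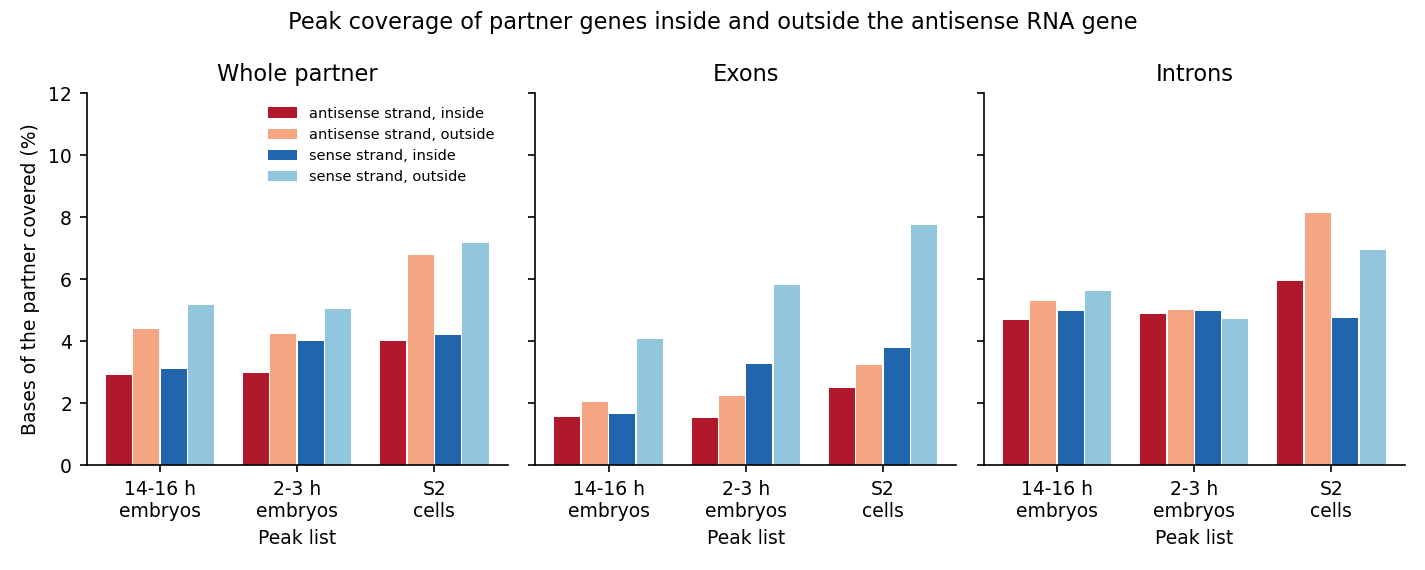
Share of partner gene bases covered by peaks, in percent, inside and outside the antisense RNA gene, on the antisense strand (red tones) and on the sense strand of the partner (blue tones), for whole partners, their exons and their introns. The bars are shares over summed bases, so they have no error bar; antisense coverage inside is below that outside in each list and each part of the partner, for example 2.92% and 4.40% over whole partners in 14–16 h embryos.

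Own-strand coverage in the embryo lists was highest just before the annotated end of the antisense genes, and in S2 cells it was about as high after the start. In the last 500 bp of the genes they covered 3.39% of bases in 14–16 h embryos, 3.78% in 2–3 h embryos and 4.51% in S2 cells, and in the 500 bp beyond the end 2.36%, 1.88% and 3.35%. At the start, the first 500 bp were covered at 2.61%, 3.13% and 4.82% and the 500 bp before it at 2.33%, 2.62% and 3.77%. The highest own-strand bin lay within 200 bp before the end in all 3 lists, at 4.35% in 14–16 h embryos, 4.30% in 2–3 h embryos and 5.17% in S2 cells, where a bin 300 to 400 bp after the start held 5.10%. On the opposite strand, where the partner is transcribed the other way, the last 500 bp were covered at 1.89%, 2.82% and 2.78% in 14–16 h embryos, 2–3 h embryos and S2 cells. Bins of short genes reach past their other end and neighbouring bins share peaks, so these shares describe the loci and are not independent of each other.

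**Figure D5:**
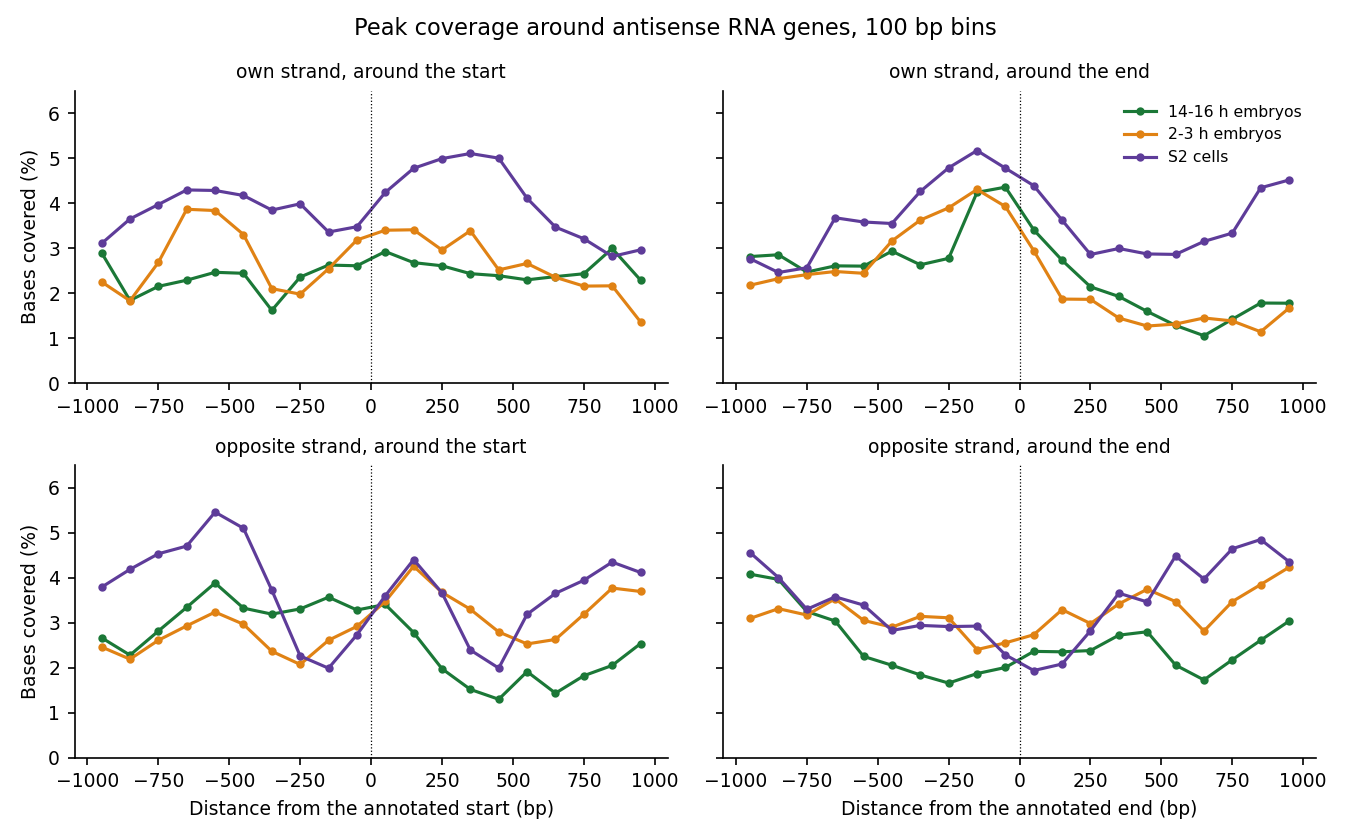
Peak coverage, in percent of bases in 100 bp bins, against the distance in bp from the annotated start (left) and end (right) of the antisense RNA genes, on the own strand (top) and the opposite strand (bottom), for 14–16 h embryos in green, 2–3 h embryos in orange and S2 cells in purple. Own-strand coverage is highest just before the end in 14–16 h and 2–3 h embryos, at 4.35% and 4.30%, and drops beyond it.

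Shares were also counted by the arrangement of antisense gene and partner. Own-strand peaks lay over 9.92% of the 252 antisense genes inside the partner in 14–16 h embryos, 9.92% in 2–3 h embryos and 15.1% in S2 cells. Over the 149 at the partner's start the shares were 13.4%, 12.1% and 14.8%, over the 57 at its end 10.5%, 7.02% and 15.8%, and over the 45 around it 13.3%, 15.6% and 8.89%. The Wilson intervals of the 4 arrangements overlapped in every list, and the groups at the end and around the partner are small. By chromosome, own-strand peaks in S2 cells lay over 6 of 70 antisense genes on X (8.57%) and over 25 of 124 on 3R (20.2%), and all genes had shares of 19.7% and 31.4% there. In 14–16 h embryos they lay over 11 of 70 on X (15.7%) and 19 of 124 on 3R (15.3%), with 31.7% and 20.4% of all genes.

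Of the own-strand peaks over antisense genes, 44.7% of 85 in 14–16 h embryos, 40% of 75 in 2–3 h embryos and 41.5% of 94 in S2 cells were centred in an intron of the partner, the most frequent place in each list. Peaks of 1 gene are not independent, and asRNA:CR44894 alone held 19 of those in 14–16 h embryos, 11 in 2–3 h embryos and 2 in S2 cells. Without it, a choice made after the data were seen, introns held 47.0% of 66 centres, 43.8% of 64 and 42.4% of 92. Coding exons of the partner held 8.24% of the centres in 14–16 h embryos (interval 4.05 to 16.0), 13.3% in 2–3 h embryos and 24.5% in S2 cells (interval 16.9 to 34.0). Without asRNA:CR44894 these were 10.6% (interval 5.23 to 20.3), 15.6% and 25% (interval 17.3 to 34.7), so that the intervals of 14–16 h embryos and S2 cells overlapped. Exons of the antisense gene itself held 49.4%, 57.3% and 70.2% of the centres over all antisense genes, and 63.6%, 65.6% and 70.7% without asRNA:CR44894.

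Purine content lay close to that of the lists, and some purine runs were less frequent. Purines made up a median of 53.4% of the bases of own-strand peaks over antisense genes in 14–16 h embryos, 55.9% in 2–3 h embryos and 55.3% in S2 cells, against 53.9%, 56.3% and 56.6% over all peaks, and 50.3% over whole antisense genes. More than 50% of the bases were purines, on the strand of the antisense gene, in 67 of 85, 66 of 75 and 83 of 92 distinct peaks. These are 78.8%, 88% and 90.2%, close to the 73.9%, 87.7% and 89.8% of all peaks in the lists, which lay inside their intervals. An unbroken run of at least 8 A was present in 69.4% of own-strand peaks in 14–16 h embryos (interval 59.0 to 78.2), 46.7% in 2–3 h embryos (interval 35.8 to 57.8) and 23.9% in S2 cells (interval 16.4 to 33.6). The lists as a whole stood at 68.8%, 57.0% and 33.9%, of which the value for S2 cells lay just above the interval. Runs of at least 15 purines were present in 34.1%, 33.3% and 23.9% of own-strand peaks, against 36.4%, 40.8% and 35.0% over all peaks, and the list value lay above the interval in S2 cells (16.4 to 33.6). Opposite-strand peaks over the same genes, read on the partner's strand, had median purine shares of 53.7%, 56.3% and 56.7%. Of these peaks, 28.4% in 2–3 h embryos held a run of 15 purines (interval 19.7 to 39.0) and 21.7% in S2 cells a run of 8 A (interval 14.2 to 31.7), and both list values lay above those intervals. The remaining list values lay inside the intervals of the opposite-strand peaks. Runs of 8 A were present in 70.9% of these peaks in 14–16 h embryos and 49.4% in 2–3 h embryos. Runs of 15 purines were present in 38.4% in 14–16 h embryos and 33.7% in S2 cells.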

How the data were processed

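ssDRIP-seq peaks of 14–16 h embryos, 2–3 h embryos and S2 cells were analysed as deposited. Read trimming by the authors used Trimmomatic, alignment to dm6 used bowtie2 and strands were split with samtools. Their MACS2 calls took the replicates of a sample type jointly, and peaks matched closely on the other strand were removed. The deposited unit is peak position and width in bp, with no score. Whether the control was the RNase H1-treated sample, the input or both is described differently in different places of the study's text.

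Genes came from the FlyBase 6.54 annotation of dm6. A gene was counted when a peak on the stated strand overlapped its span by at least 1 bp. Antisense genes were those with the prefix asRNA:, and all 503 entered every count. Named genes were those with an own-strand peak in all 3 lists and the highest mean covered share (12), the top 3 of each list by own-strand bp among genes marked in that list only, the top 2 of each list by opposite-strand bp without an own-strand peak, those under the widest own-strand peak, the 2 longest without peaks, and the top 3 of each partner list; asRNA:CR44894 was added after its values were seen, and the names in the plot are all 23 genes in all lists. Members, partner lists and tests were chosen with earlier results of these data known. No test was run, since replicates are pooled. Other genes were weighted to the lengths of antisense genes in 5 classes, and in 20 classes as an addition. The overlap programs passed 16 of 16 checks on simulated data. Counting used NumPy 2.4.6 under Python 3.11.15, intervals SciPy 1.17.1 and plots matplotlib 3.10.9. Reads, signal tracks and expression data were not used here.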

Additional observations from a re-analysis of the deposited data

How the results depend on the processing

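No paired analysis was possible because each peak list pools its replicates, and for the same reason leaving out a replicate was not run. Of 154 alternative values of summary results planned with the design, 131 stayed within 1.5 times the main count, or for covered shares within its 95% interval taken over genes, and 23 moved. That interval treats a share of bases as a share of genes, so it is not the error of a covered share. Own-strand coverage in 14–16 h embryos, 3.27% in the main setting and 2.18% with only peaks wider than the median, counted as unmoved. The 131 therefore do not measure how stable the covered shares were. A setting kept to antisense genes with a gene on the other strand held all 503 of them. Its values repeated the main ones by construction, and they are counted among the 131. With only peaks wider than the median of their list, own-strand counts were 34, 28 and 36 in 14–16 h embryos, 2–3 h embryos and S2 cells, opposite-strand counts 27, 33 and 36, both-strand counts 18, 12 and 13, genes in all 3 lists 11 and in 1 list 33. Opposite-strand coverage in 14–16 h embryos was then 1.77%, own-strand coverage in S2 cells 1.96% and antisense coverage of partners inside the antisense gene in S2 cells 2.25%. The share of all genes with an own-strand peak was 14.4%, 15.2% and 16.5% under the same choice, which was added after seeing the data, so antisense genes stayed below it. Without peaks paired across strands, 14–16 h embryos had 35 own-strand and 9 both-strand genes, own-strand coverage of 1.66%, opposite-strand coverage of 1.64% and antisense coverage of partners of 1.26% inside and 1.90% outside, and 13 genes were in all 3 lists. With 500 bp added on each side, both-strand counts were 49 in 14–16 h embryos and 40 in S2 cells. These alternatives use fewer peaks or longer spans by construction. In the 7 settings run on both, the own-strand share of the antisense genes was below that of all genes in 21 of 21 comparisons. These comparisons reuse the same 3 peak lists and are not weighted for gene length. Weighted in 20 length classes, other genes stood at 12.4% in 14–16 h embryos, inside the interval of the antisense genes. Up to 2133 bp the shares in that list were 8.46% of antisense genes and 8.39% of other genes. Leaving out the 29 genes of 5 kb or more gave own-strand coverage of 2.39%, 2.18% and 3.44%. The missing peak heights and unknown depth mean that an uncalled locus may hold signal below the caller's threshold.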

Other observations

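The longest antisense gene, asRNA:CR44894 (X, 94235 bp, facing CG43902), had 19 own-strand peaks over 7609 bp in 14–16 h embryos, 11 over 5102 bp in 2–3 h embryos and 2 over 778 bp in S2 cells. Its opposite strand had 17 peaks over 6663 bp, 8 over 4887 bp and 5 over 2432 bp in the same lists. Both strands of this locus were thus covered least in S2 cells. asRNA:CR45145, inside RhoGEF2, an activator of the Rho1 GTPase, had own-strand coverage of 258, 307 and 242 bp in 14–16 h embryos, 2–3 h embryos and S2 cells and, like the antisense genes of grp, sev and Galphaf, no opposite-strand peak in any list. asRNA:CR45137 inside sca, a secreted protein that spaces neural precursors, was covered over 1377, 1573 and 1632 bp on its own strand, of which 381 bp were covered in every list. asRNA:CR46473, which faces mud, a spindle orientation protein, had 1848, 1349 and 546 bp covered.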
